A study of Mus musculus with 6 samples.

Results

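The genes described here are 35 genes of the NRF2, glutathione and antioxidant enzyme systems, among 46603 genes counted in mouse macrophages. They were chosen by symbol, and all 35 symbols were found through the GENCODE M21 annotation of the mouse build GRCm38. The cells, bone marrow macrophages of 7-week C57BL/6/J mice, were exposed to medium that cancer cells had conditioned, and their RNA was sequenced. In 3 libraries that medium kept its lipids ("with lipids") and in 3 it lacked them ("without lipids"). All cells had been grown with 20% L929-conditioned medium, a source of macrophage growth factor, and were seeded at day 6 and treated 6 h later. No library of untreated cells was analysed, so each value compares 2 conditioned media. The sources used here name neither the cancer cell line nor the method that took out the lipids, and do not state how long the exposure lasted. The labels do not say whether the replicates are separate mice or cultures, and p-values therefore cover only the spread among these 6 libraries, which may be technical.

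NRF2, encoded by Nfe2l2, is the transcription factor that switches on genes against oxidants and reactive chemicals, and KEAP1 is the sensor that holds it in the cytoplasm and marks it for destruction. Its targets carry antioxidant response elements and make glutathione, recycle thioredoxin and remove quinones. Peroxiredoxins, glutathione peroxidases and catalase break down peroxides, superoxide dismutases turn superoxide into hydrogen peroxide, and the pentose phosphate pathway supplies the NADPH that these systems consume. In macrophages the same enzymes limit damage from the cell's own oxidant burst and from oxidised lipid.

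The core of the antioxidant response element was looked for in RefSeq promoter windows (GRCm38.p6, 250 bases before to 50 after each start), because the pathway is known for it. The letters searched were TGACNNNGC on both strands, which read GCNNNGTCA on the other strand. Of the 35 genes 31 had a window in the table, and 9 of those held the core. Among their 40 windows 22.5% held it, against 12.4% of all 32851 windows in the table. A longer form, the MAF recognition element type, was also searched and was in 0 of the 40 windows and 0.155% of all windows. A match describes letters only, and elements farther from a start lie outside these windows. Each stretch below runs 5′ to 3′ on the gene's strand, with the matching 9 bases in capitals. The first 4 belong to genes that were lower with lipids, and the other 5 to genes that did not pass the test.
Prdx1 (chr4:116685456-116685484): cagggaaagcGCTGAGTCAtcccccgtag
Mgst1 (chr6:138140461-138140489): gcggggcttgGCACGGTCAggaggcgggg
Txnrd1 (chr10:82859104-82859132): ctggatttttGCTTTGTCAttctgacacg
Srxn1 (chr2:152105542-152105570): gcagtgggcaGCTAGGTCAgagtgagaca
Nfe2l2 (chr2:75704885-75704913): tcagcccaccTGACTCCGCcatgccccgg
Gclm (chr3:122245413-122245441): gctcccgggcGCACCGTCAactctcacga
Sod1 (chr16:90220696-90220724): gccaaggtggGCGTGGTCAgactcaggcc
G6pdx (chrX:74428919-74428947): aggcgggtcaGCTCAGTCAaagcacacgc
Pgd (chr4:149166061-149166089): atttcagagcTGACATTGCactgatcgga

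The Srxn1 and Pgd matches lie past the RefSeq start site of their window, and the other 7 lie before that of theirs. The Txnrd1, Mgst1 and G6pdx matches lie before such a start but inside the whole gene as annotated in GENCODE M21. Txnrd1 had 3 windows. Genes with and without a core were thus found both among those that were lower with lipids and among those that did not pass.

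Libraries held 19429022 to 25323053 counts, at which 3 counts, the limit a count of 0 allows, equal 0.118 to 0.154 counts per 1000000 (CPM). That limit covers counting error only. CPM values here are scaled with trimmed mean of M-values (TMM) factors. Macrophage markers were high in all 6 libraries, with summed levels of 29182 to 29539 CPM with lipids and 29500 to 34376 CPM without for 8 genes. Of the 5 red cell markers, listed because catalase and peroxiredoxin 2 are abundant in that lineage, 3 had no count and the sum was at most 0.181 CPM with lipids and 0.275 CPM without. The 4 fibroblast markers were all detected and summed to 106, 98.2 and 104 CPM with lipids, against 98.3, 132 and 136 CPM without. Their part in the results was not tested. Markers of neutrophils, dendritic cells, T cells, platelets, mast cells, eosinophils and epithelial cells summed to at most 1.40 CPM per list in any library, with Ly6g, Cd3e, Krt8 and Krt18 at 0. Among the libraries without lipids, replicate 1 stood apart, at -22.96 on the second principal component (21.8% of variance), where the other 5 lay between -1.17 and 13.9.

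Macrophages in medium that kept its lipids had lower transcript levels of 3 glutathione peroxidases, catalase, the mitochondrial superoxide dismutase and 3 glutathione transferases. Peroxiredoxin 1, its repair enzyme, thioredoxin reductase and transaldolase were lower too. Of these 12 genes, 8 kept the call whichever library was left out. In bulk libraries, fewer cells with a transcript and less of it per cell cannot be told apart. Coordinates given with gene names below are whole genes in GENCODE M21 on GRCm38. Of the 35 genes 34 passed the filter on low counts, 12 were lower with lipids and 0 were higher at an adjusted p under 0.05 (edgeR, quasi-likelihood). Over all 12767 genes tested, 6.87% were lower and 4.58% higher. Among genes averaging at least 50 CPM, where small changes are easier to detect, 11.1% of 4199 were lower and 6.12% higher, and of the 26 members at that level 10 were lower and 0 higher. The 12 changes were modest, with levels between 0.555 and 0.831 of those without lipids. At an unadjusted p under 0.05, 17 of 34 members were lower and 0 higher, where 14.5% of all tested genes were lower and 12.1% higher.

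The members' log2 fold changes, taken as with lipids minus without, had a median of -0.20, against -0.0032 over all tested genes. They were negative for 30 of 34 members and for 50.8% of all tested genes. All 3 libraries with lipids lay below all 3 without for 17 of 34 members, and above them for 1, G6pdx. Over all tested genes those shares were 15.8% and 14.7%. With library totals in place of TMM factors, 11 members were lower and 0 higher, while over all genes 4.67% were lower and 9.72% higher. The members' median was then -0.13 and that of all genes 0.073.

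**Figure D1:**
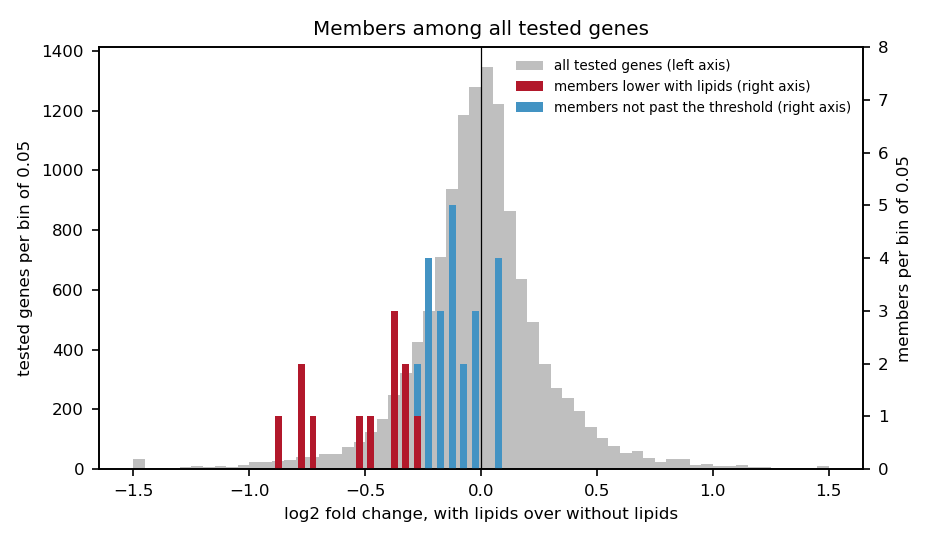
Histogram of log2 fold changes (with lipids over without lipids, x axis) in bins of 0.05, for all 12767 tested genes in grey (left axis) and for the 34 tested members in colour (right axis). The 40 genes beyond 1.5 in size are counted in the end bins. All 12 red members lie left of 0 and 4 blue ones lie right of it.

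Replicate 1 without lipids changed the count most. When it was left out, 21 members were lower and 1, Gclc, was higher, where 15.1% of all genes were lower and 12.0% higher. When with-lipid replicate 1, 2 or 3 was dropped, 8, 9 and 9 members were lower, where 3.67%, 3.27% and 3.75% of all genes were. When without-lipid replicate 2 or 3 was dropped, 9 and 13 members were lower, where 3.69% and 6.69% of all genes were. In these 5 fits 0 members were higher, where 2.03%, 1.69%, 1.87%, 1.87% and 5.01% of all genes were. The 12 members that were lower stayed lower without replicate 1, and 8 of them did so whichever library was left out. Those 8 were Gstm1, Gpx1, Mgst1, Sod2, Mgst3, Taldo1, Prdx1 and Srxn1.

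**Figure D2:**
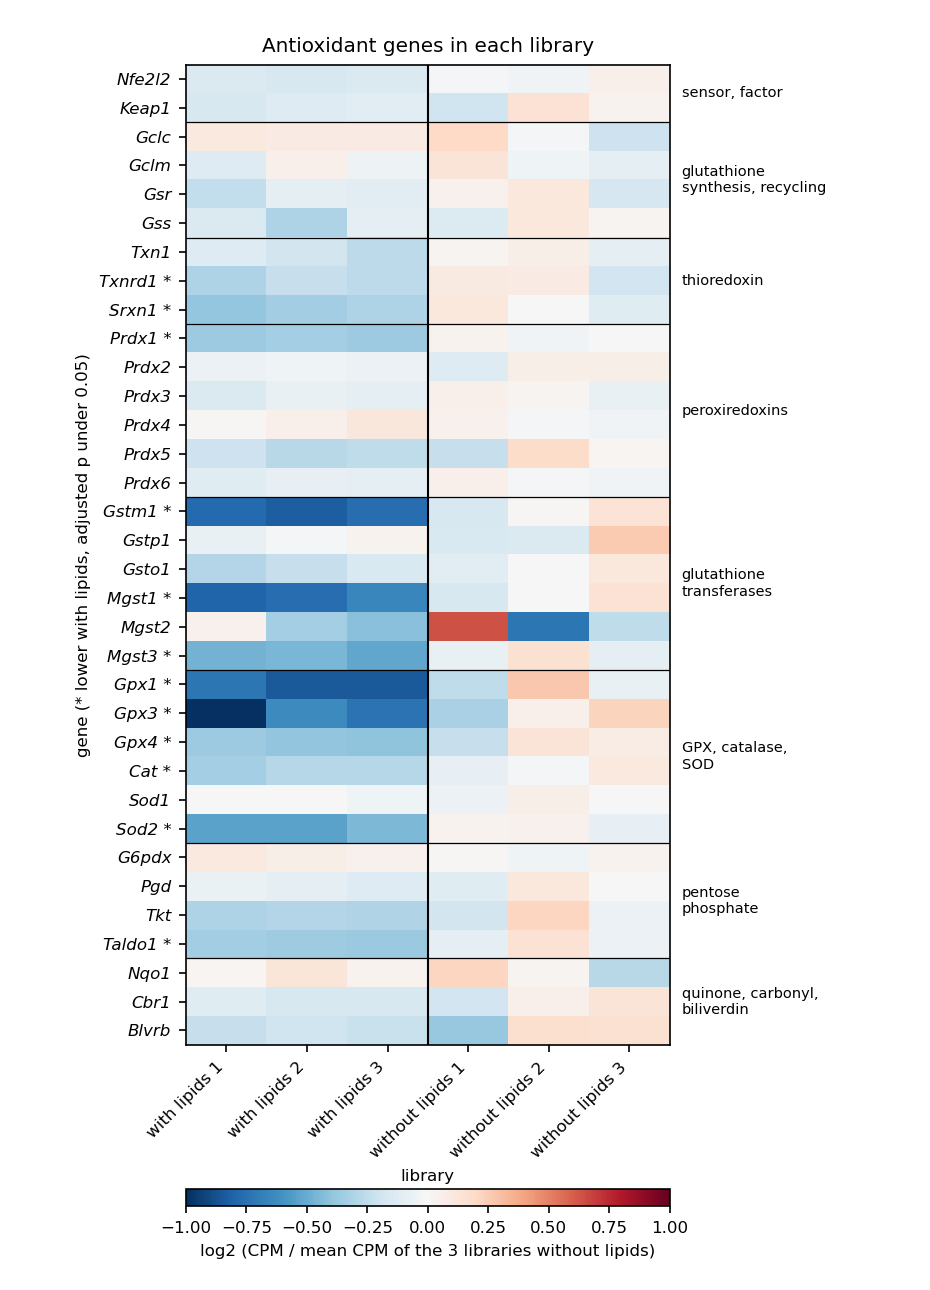
Heat map of 34 members (rows, grouped by class) in 6 libraries (columns, with lipids left of the line), coloured by log2 of CPM over the mean CPM of the 3 libraries without lipids. Blue is lower and red is higher than that mean, and an asterisk marks the 12 genes that were lower with lipids.

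The sensor and its transcription factor did not pass the test. Nfe2l2 stood at 353, 350 and 353 CPM with lipids, against 386, 381 and 405 CPM without. Its groups did not overlap, but the difference of -0.15 log2 (SE 0.05) had an edgeR adjusted p of 0.0947. Keap1 was at 35.7, 36.6 and 37.0 CPM with lipids and 34.7, 44.2 and 40.9 CPM without. Replicate 1 without lipids lay below all 3 libraries with lipids for Keap1, and the groups overlapped (-0.13 log2, SE 0.09, edgeR adjusted p = 0.377). Without that replicate both genes passed, at -0.15 (edgeR adjusted p = 0.0299) and -0.22 (edgeR adjusted p = 0.0186).

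None of the 4 genes that make or recycle glutathione passed the test. Gclc and Gclm encode the catalytic and modifier subunits of glutamate-cysteine ligase, the rate-limiting step. Gclc was at 63.7, 62.9 and 63.0 CPM with lipids, against 68.1, 58.9 and 51.4 CPM without. Gclm was at 85.8, 97.0 and 90.4 CPM with lipids and 103, 91.1 and 87.8 CPM without. The groups overlapped for both genes. Among the libraries without lipids, replicate 1 was highest and replicate 3 lowest for both. The differences were 0.089 (SE 0.09) and -0.042 log2 (SE 0.08), with edgeR adjusted p-values of 0.584 and 0.764. Leaving out replicate 1 without lipids brought Gclc to 0.20 (edgeR adjusted p = 0.0293). Leaving out replicate 3 brought it to -0.0037 (edgeR adjusted p = 0.984), so its sign and call rested on single libraries. Gss, glutathione synthetase, was at 11.1 ± 0.9 CPM with lipids, against 12.5 ± 1.0 CPM without (SD, n = 3 each), and Gsr, glutathione reductase, at 54.4 ± 3.0 with lipids, against 60.4 ± 5.8 CPM without. Part of Gss lies opposite Acss2, so reads of the pair could be mixed if counting ignored strand.

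In the thioredoxin system, 2 of 3 genes were lower with lipids. Srxn1 (chr2:152105516-152111376), sulfiredoxin, repairs peroxiredoxins that peroxide has over-oxidised. It was at 159, 163 and 168 CPM with lipids, against 224, 209 and 191 CPM without, and every library with lipids lay below every one without. The difference was -0.35 log2 (SE 0.07, edgeR adjusted p = 0.00678), and it passed whichever library was left out, with a largest edgeR adjusted p of 0.0492. Txnrd1 (chr10:82833951-82897712), the cytosolic thioredoxin reductase, a selenoprotein, was at 237, 249 and 244 CPM with lipids and 312, 311 and 256 CPM without. Replicate 3 without lipids came within 7 CPM of the highest library with lipids. Txnrd1 passed narrowly at -0.27 log2 (SE 0.08, edgeR adjusted p = 0.0475), and the call was lost with library totals, median-of-ratios scaling or limma-voom and in 4 of 6 fits that left out a library. Txn1, thioredoxin itself, was at 226, 218 and 207 CPM with lipids and 252, 257 and 233 CPM without. Its groups did not overlap, yet it did not pass (-0.19 log2, SE 0.06, edgeR adjusted p = 0.0740).

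Of the 6 peroxiredoxins only Prdx1 passed the test. Prdx1 (chr4:116685544-116700822), an abundant cytosolic peroxidase, was at 1377, 1398 and 1377 CPM with lipids, against 1816, 1733 and 1768 CPM without. The 3 libraries of each group lay close together and far from the other group. The difference was -0.36 log2 (SE 0.05, edgeR adjusted p = 0.00148), with values of -0.37 to -0.33 when each library was left out in turn. Per kilobase of annotated exon it was the most abundant member, at 455 CPM per kilobase with lipids and 583 without, followed by Txn1 at 206 and 235. Prdx1 carries the core GCTGAGTCA shown above. Its 250 bases before the start (chr4:116685349-116685598, plus strand) are given because no other member holds as large a share of these transcripts.
Prdx1 upstream: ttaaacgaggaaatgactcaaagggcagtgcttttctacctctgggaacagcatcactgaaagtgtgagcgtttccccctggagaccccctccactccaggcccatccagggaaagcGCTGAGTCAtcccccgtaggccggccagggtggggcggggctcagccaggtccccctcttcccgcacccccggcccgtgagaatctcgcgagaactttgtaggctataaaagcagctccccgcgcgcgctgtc

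The other peroxiredoxins had smaller differences. Prdx5, found in mitochondria, peroxisomes and cytosol, was at 107, 102 and 103 CPM with lipids and 105, 140 and 125 CPM without. Replicate 1 without lipids lay inside the range of the libraries with lipids, and Prdx5 did not pass with it (-0.25 log2, SE 0.09, edgeR adjusted p = 0.111) but did without it (-0.35, edgeR adjusted p = 0.000861). With all 6 libraries and no filter on low counts, Prdx5 passed too (edgeR adjusted p = 0.0162). Trmt112 overlaps Prdx5 on the other strand. The mitochondrial Prdx3 was at -0.10, the 1-Cys enzyme Prdx6 at -0.10, the cytosolic Prdx2 at -0.053 and the endoplasmic reticulum enzyme Prdx4 at 0.059 log2, with edgeR adjusted p-values of 0.313 to 0.649. The Prdx2 difference turned to 0.024 with library totals, and Prdx2 overlaps Rnaseh2a and Junb on the other strand.

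Glutathione transferases, which join glutathione to reactive compounds, were lower with lipids for 3 of the 6 genes tested. Gstm1 (chr3:108012255-108017973), of the mu class, was at 60.9, 59.0 and 61.7 CPM with lipids, against 93.4, 105 and 115 CPM without. That was -0.79 log2 (SE 0.08, edgeR adjusted p = 0.00011), the lowest p among the members. Mgst1 (chr6:138140316-138156755), a membrane-bound enzyme that also reduces lipid peroxides, was at 23.7, 24.3 and 26.2 CPM with lipids and 36.9, 41.3 and 45.6 CPM without (-0.74 log2, SE 0.09, edgeR adjusted p = 0.000441). Mgst3 (chr1:167371966-167393841), its relative, was at 43.3, 43.9 and 42.1 CPM with lipids and 57.2, 66.8 and 56.6 CPM without (-0.48 log2, SE 0.08, edgeR adjusted p = 0.00251). For all 3 the groups were well separated, and each passed whichever library was left out.

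The remaining transferases did not pass. Gsto1, of the omega class, was at 75.6, 79.1 and 83.5 CPM with lipids and 86.0, 92.5 and 100 CPM without, with no overlap (-0.23 log2, SE 0.07, edgeR adjusted p = 0.0680), and it passed when without-lipid replicate 1 was dropped (edgeR adjusted p = 0.00516). Without the filter on low counts, Gsto1 passed too (edgeR adjusted p = 0.0430). Gstp1 was at 3.29 ± 0.13 CPM with lipids, against 3.34 ± 0.57 CPM without (SD, n = 3 each). Mgst2 was near 1 CPM, with 20, 18 and 14 counts with lipids and 26, 10 and 16 without, and its sign turned when replicate 1 without lipids was left out. Gsta4, with 1, 4 and 2 counts with lipids and 0, 0 and 3 without, lay below the filter.

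Close copies limit some of these values. Gstm1 shares 97.9% of 657 aligned transcript bases with a processed pseudogene, Gstm2-ps1, which held 655 counts against 10454 for Gstm1. The mu-class neighbour Gstm4 was also lower, at 7.27 ± 0.38 CPM with lipids, against 9.90 ± 0.75 CPM without (-0.45 log2, edgeR adjusted p = 0.0216), while Gstm2 did not pass (-0.13, edgeR adjusted p = 0.722). The Gstm4 call was lost in 4 of 6 fits that left out a library. Gstp1 shares 98.2% of 707 bases with Gstp2 and 97.6% of 631 with Gstp-ps, which held 326 counts against 430, so its low level is uncertain. Gpx4, Prdx1, Prdx2, Sod1 and Txn1 also had copies with at least 95% identity over at least 200 bases. The copies of these genes that were counted held at most 307 counts each. Neither copy of Gpx4 was among the genes counted, so the reads they may hold are unknown. One of them, Gpx4-ps2, shares 99.7% of 733 aligned bases with Gpx4.

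The peroxidases, catalase and superoxide dismutases had the highest share of members past the test, 5 of 6. Gpx1 (chr9:108338903-108340343), the abundant cytosolic glutathione peroxidase, was at 195, 180 and 181 CPM with lipids, against 271, 390 and 307 CPM without. Its libraries without lipids were spread, but all lay above those with lipids. The difference was -0.80 log2 (SE 0.11, edgeR adjusted p = 0.00104), and it ranged from -0.90 to -0.64 when each library was left out in turn. Gpx4 (chr10:80047166-80056439), the peroxidase that reduces lipid hydroperoxides in membranes and restrains ferroptosis, was at 174, 170 and 169 CPM with lipids and 191, 245 and 236 CPM without. Replicate 1 without lipids was the closest to the other group. Gpx4 passed at -0.39 log2 (SE 0.08, edgeR adjusted p = 0.0136), but in 4 of 6 fits that left out a library it did not, with a largest edgeR adjusted p of 0.0749. Gpx3 (chr11:54902453-54910377), a secreted peroxidase, was low, at 1.63, 2.50 and 2.34 CPM with lipids and 3.10, 4.03 and 4.55 CPM without (-0.85 log2, SE 0.20, edgeR adjusted p = 0.0202). Its call was also lost in 4 of 6 such fits, with a largest edgeR adjusted p of 0.0877. GPX1, GPX3 and GPX4 all hold selenocysteine in the active site.

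Cat (chr2:103453849-103485160), catalase of peroxisomes, was at 351, 363 and 364 CPM with lipids, against 419, 437 and 474 CPM without. The groups were separate, and the difference was -0.30 log2 (SE 0.06, edgeR adjusted p = 0.00848). After with-lipid replicate 1 or 2 was dropped, the edgeR adjusted p was 0.0569 and 0.0522. Sod2 (chr17:13006846-13040063), the mitochondrial superoxide dismutase and a known NF-kB target, was at 76.9, 77.1 and 81.9 CPM with lipids and 114, 115 and 105 CPM without (-0.51 log2, SE 0.06, edgeR adjusted p = 0.000547). Sod1, the cytosolic copper and zinc enzyme, was at 161, 161 and 156 CPM with lipids and 155, 168 and 162 CPM without, with overlapping groups. Its difference of -0.017 log2 (SE 0.06) had an edgeR adjusted p of 0.879. The sign turned with library totals (0.059) and when replicate 2 lacking lipids was dropped (0.0097). Whether Sod1 and Sod2 differed in their response was not tested.

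**Figure D3:**
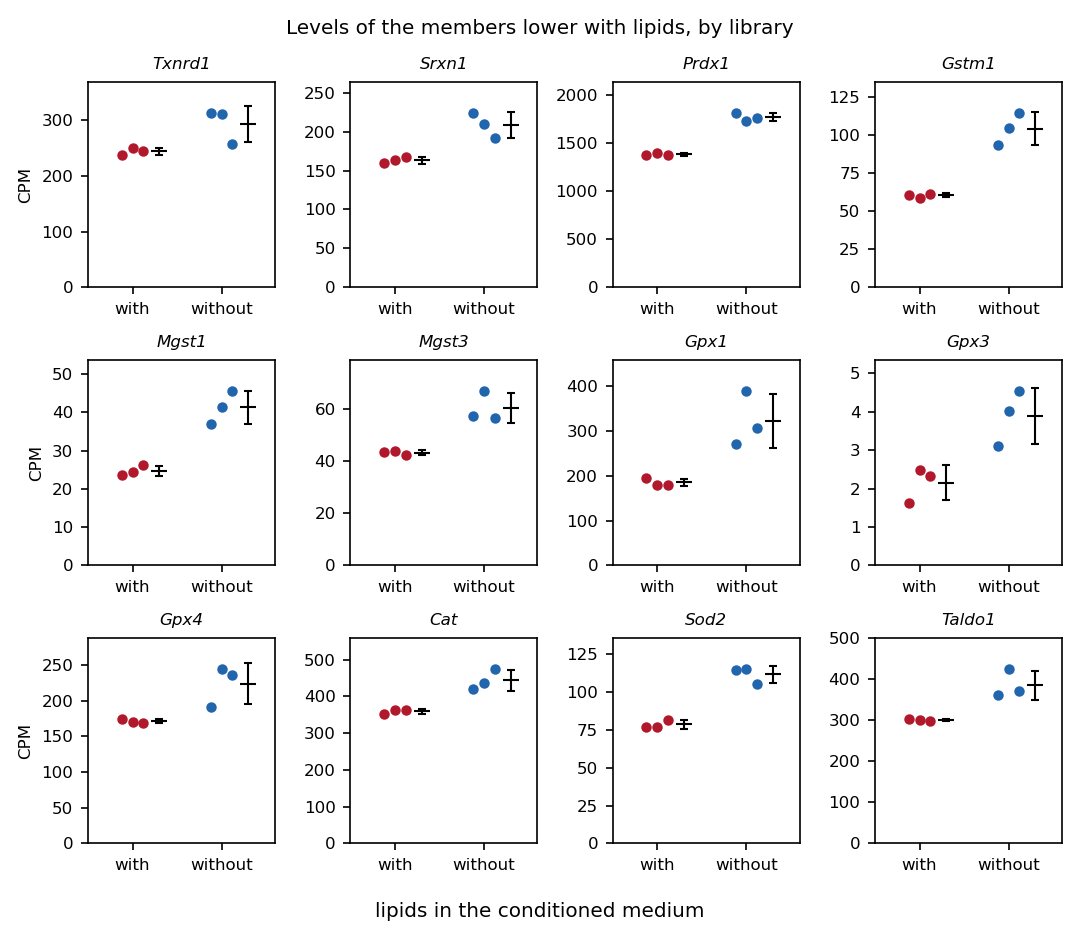
Level in CPM (y axis, from 0) of the 12 members lower with lipids, with 3 libraries with lipids in red and 3 without in blue, and the mean with SD beside each group. The groups do not overlap in any panel, and the libraries without lipids are the more spread in all of them, with Gpx1 at 271 to 390 CPM.

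Among the 4 pentose phosphate enzymes, 1 passed. Taldo1 (chr7:141392199-141402968), transaldolase of the non-oxidative branch, was at 302, 301 and 297 CPM with lipids, against 361, 425 and 370 CPM without (-0.36 log2, SE 0.07, edgeR adjusted p = 0.00624). It passed whichever library was left out. Tkt, transketolase of the same branch, was at 293, 296 and 294 CPM with lipids and 319, 420 and 348 CPM without. It just missed the threshold, at -0.30 log2 (SE 0.09, edgeR adjusted p = 0.0506). It passed with DESeq2 (adjusted p = 0.0226), without the filter, with the replicate number as a block and in 2 fits that left out a library without lipids.

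The oxidative branch, which makes NADPH, held no gene that passed. G6pdx, glucose-6-phosphate dehydrogenase, was at 291, 284 and 281 CPM with lipids and 275, 264 and 278 CPM without, so all libraries with lipids were the higher ones (0.067 log2, SE 0.05, edgeR adjusted p = 0.469). Ikbkg overlaps 13.6% of its exon length on the other strand. Pgd, the next enzyme, was at 445, 438 and 426 CPM with lipids and 428, 501 and 467 CPM without, with overlap (-0.093 log2, SE 0.06, edgeR adjusted p = 0.397).

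Quinone, carbonyl and biliverdin reductases included no gene that passed. Nqo1, a quinone reductase often used as a readout of NRF2, was at 20.4, 21.9 and 20.7 CPM with lipids, against 23.3, 20.5 and 16.6 CPM without. The libraries with lipids lay inside the range of the others (0.065 log2, SE 0.12, edgeR adjusted p = 0.765), and the sign turned to -0.056 when replicate 3 lacking lipids was dropped. Blvrb, biliverdin reductase B, was at 89.6, 91.7 and 90.0 CPM with lipids and 80.8, 118 and 117 CPM without. Here replicate 1 without lipids lay below the libraries with lipids and the other two lay above them. Blvrb did not pass (-0.22 log2, SE 0.12, edgeR adjusted p = 0.276) but did without that replicate (-0.37, edgeR adjusted p = 0.000185). Cbr1, a carbonyl reductase, was at 26.1 ± 0.4 CPM with lipids, against 28.9 ± 3.3 CPM without (SD, n = 3 each), and passed without the same replicate at -0.23 (edgeR adjusted p = 0.0209).

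**Figure D4:**
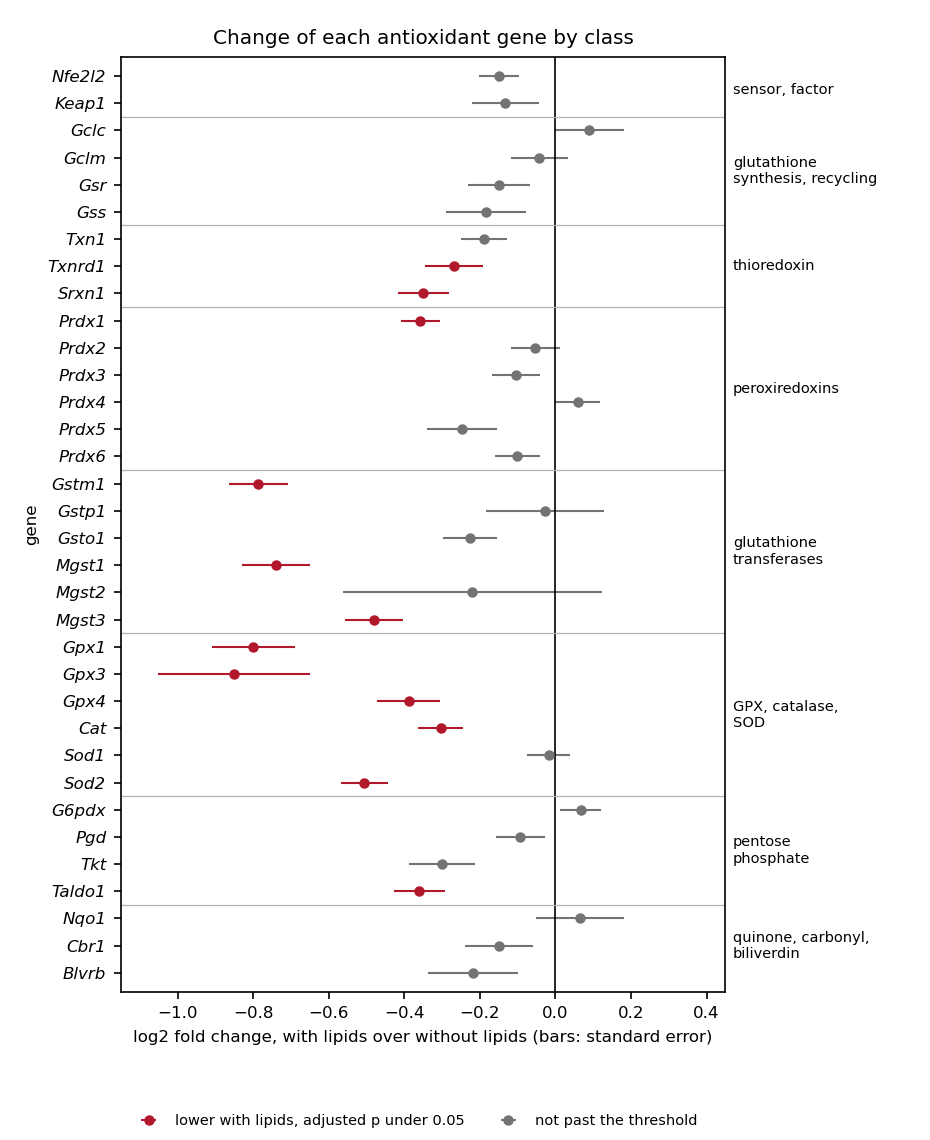
Log2 fold change of each member, with lipids over without lipids (x axis), with its standard error as a bar, grouped by class. Red points are the 12 genes lower with lipids, which include 5 of the 6 peroxidases, catalase and superoxide dismutases and none of the 4 glutathione synthesis and recycling genes.

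The position of replicate 1 without lipids differed between members. It was the lowest of its group for 18 of the 34 tested members, the highest for 10 and in between for 6. For 8 members (Keap1, Gss, Prdx2, Prdx5, Sod1, Pgd, Cbr1 and Blvrb) it lay within or below the range of the libraries with lipids while the other two lay above it. The 10 for which it was highest were Nqo1, Gclc, Gclm, Txnrd1, Srxn1, Prdx1, Prdx3, Prdx4, Prdx6 and Mgst2. These genes were picked out after their values were seen, and the part of that library in each difference is given by the fits without it. The position of that library was not counted over all tested genes.

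**Figure D5:**
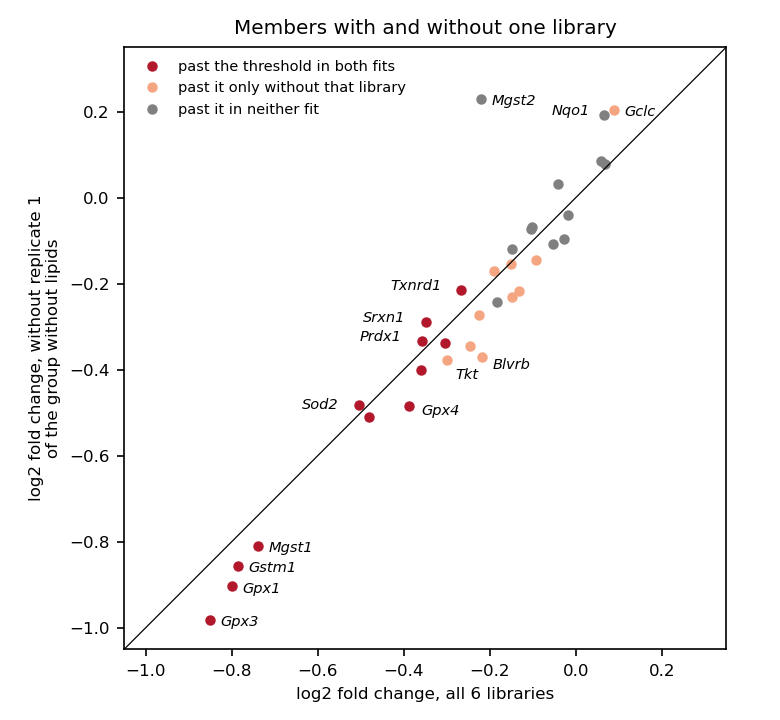
Log2 fold change of each member (with lipids over without lipids) from all 6 libraries (x axis) and after dropping without-lipid replicate 1 (y axis), with the line of equal values. The 12 red genes passed in both fits, and the 10 pale ones, such as Gclc at 0.089 and 0.20 and Blvrb at -0.22 and -0.37, passed in the second fit and not in the first.

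The surrounding pathway was read from a list of 78 other redox genes chosen by role, of which 72 were tested. Of these 12 were lower with lipids and 0 higher (median -0.13 log2), where 6.87% and 4.58% of all tested genes were. At an unadjusted p under 0.05, 24 were lower and 3 higher, where 14.5% and 12.1% of all genes were. All 3 libraries with lipids lay below those without for 28 of the 72 and above them for 4, where the shares over all genes were 15.8% and 14.7%. Iron-storing ferritin was among them, with Fth1 at 7598 ± 339 CPM with lipids, against 12089 ± 443 CPM without (-0.67 log2, SE 0.06, edgeR adjusted p = 8.29e-05) and Ftl1 at 1751 ± 53 CPM with lipids, against 2612 ± 327 CPM without (-0.58, SE 0.08, edgeR adjusted p = 0.00143). Ferritin genes are known to have many copies in the genome, and these were not examined. Sqstm1, the autophagy receptor p62 that binds KEAP1, was at 531 ± 15 CPM with lipids, against 751 ± 62 CPM without (-0.50, SE 0.07, edgeR adjusted p = 0.000884; SD, n = 3 each).

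Both chains of the cystine importer that feeds glutathione synthesis were lower. Slc7a11 was at 2.17 ± 0.48 CPM with lipids, against 4.10 ± 1.11 CPM without (-0.92, SE 0.23, edgeR adjusted p = 0.0265). Slc3a2 was at 260 ± 0.9 CPM with lipids, against 308 ± 17 CPM without (-0.24, SE 0.06, edgeR adjusted p = 0.0213). The 2 calls are less firm than those of ferritin, since they were lost in 3 and 4 of 6 fits that left out a library, and that of Slc3a2 also with library totals (edgeR adjusted p = 0.0792).

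Of the repair enzymes for oxidised methionine, Msra and Msrb1 were lower. Msra was at 33.0 ± 1.0 CPM with lipids, against 45.3 ± 1.7 CPM without (-0.46, SE 0.07, edgeR adjusted p = 0.00165), and the selenoprotein Msrb1 was at 64.9 ± 0.9 CPM with lipids, against 87.4 ± 6.3 CPM without (-0.43, SE 0.07, edgeR adjusted p = 0.00218), while the mitochondrial Msrb2 did not pass (-0.047, edgeR adjusted p = 0.797). Selenow, a small selenoprotein, had the largest change of the called genes on the list, at 20.9 ± 1.0 CPM with lipids, against 41.5 ± 8.3 CPM without (-0.99, SE 0.12, edgeR adjusted p = 0.000575). Esd, which encodes S-formylglutathione hydrolase, was at -0.45 (edgeR adjusted p = 0.00176) and the aldehyde reductase Akr1a1 at -0.31 (edgeR adjusted p = 0.0120). Mafk, a small MAF protein that pairs with NRF2 on DNA, was at -0.47 (edgeR adjusted p = 0.0190). The calls of Akr1a1 and Mafk were lost in 4 of 6 fits that left out a library.

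Txnip, which encodes an inhibitor of thioredoxin, is named here after its values were seen. It was at 1034, 1140 and 1206 CPM with lipids, against 836, 903 and 1036 CPM without. The lowest library with lipids lay just under the highest one without, and Txnip just missed the threshold (0.28 log2, SE 0.08, edgeR adjusted p = 0.0534). It passed as higher with median-of-ratios scaling, library totals, no filter, DESeq2, limma-voom or the replicate number as a block, and in 2 of 6 fits that left out a library.

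Other genes of the NRF2 pathway on that list did not pass, and 3 are given here. Hmox1, haem oxygenase 1, was at 842, 779 and 801 CPM with lipids, against 782, 875 and 734 CPM without, with overlap (0.019 log2, SE 0.07, edgeR adjusted p = 0.893). Bach1, the repressor that competes with NRF2, was at 200 ± 8.0 CPM with lipids, against 193 ± 10.1 CPM without (0.049, edgeR adjusted p = 0.659). Me1, the NADPH-making malic enzyme, was at 18.3 ± 0.9 CPM with lipids, against 16.9 ± 0.7 CPM without (0.12, edgeR adjusted p = 0.419; SD, n = 3 each). A p that misses the threshold does not show that their levels were equal.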

How the data were processed

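The authors deposited raw counts per Ensembl gene for 6 libraries of total RNA prepared, per the labels, by a strand-specific poly(A) protocol. GRCm38.p4, HTSeq, TopHat2 2.1.0 and DESeq2 appear, without roles, in the submitters' processing notes. The sources used here give no strand setting and no annotation release. Each table held 46603 gene rows and 0 rows naming no gene, and 46005 identifiers matched GENCODE M21. Groups came from the sample titles, 3 libraries each. Genes were filtered with filterByExpr (minimum count 10, minimum total 15), scaled with TMM and tested with edgeR 4.0.16 in R 4.3.3 (quasi-likelihood F test, two-sided, Benjamini-Hochberg adjustment over 12767 genes, threshold 0.05). Standard errors came from the F statistic. The steps were tested on simulated data, with 50 changed genes at each size. They recovered 32% of 1.25-fold, 70% of 1.5-fold, 92% of 2-fold and 100% of 4-fold changes. Of the 163 calls made there, 16 were false, a larger share than the threshold of 0.05. Only 200 genes were changed there, while in the data 877 were called lower and 585 higher. These rates may therefore not carry over to the data. Replicates differed by more than sampling noise. Alternatives were other scalings, filters, DESeq2 1.42.0, limma-voom (limma 3.58.1), the replicate number as a block and each library left out.

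The members and lists were chosen with earlier results of these data known. Every member is named. Levels by library are given for members past the threshold and for a fixed set of others, and other redox genes are named from a fixed set or because they passed, while Gstm2, Msrb2, Txnip, Abcc4 and the levels of Prdx5, Gsto1, Blvrb and Tkt were added after seeing values. Close copies were found by aligning transcripts (blastn, at least 95% identity over 200 bases) in place of proteins. Lengths are unions of annotated exons. One list of cell type markers is not reported here.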

Additional observations from a re-analysis of the deposited data

How the results depend on the processing

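The 12 lower members numbered 11 with median-of-ratios scaling, library totals or limma-voom, 12 with a filter of 1 CPM, 13 with DESeq2 and 15 without a filter. Over all genes, lower counts in the same order were 856, 596, 845, 852, 907 and 1243, against 877 in the main fit. Leaving out each library gave 8 to 21 lower and 0 to 1 higher members, 7 to 25 lower and 0 to 2 higher genes of the wider list, and 423 to 1975 lower and 219 to 1566 higher genes overall. The wider list's higher count was 0 with TMM, 1 with median-of-ratios scaling, no filter, DESeq2 or limma-voom and 2 with library totals. That gene was Txnip, joined by Abcc4 with library totals. Overall higher genes, 585 with TMM, were 1241 with library totals and 1009 without a filter. Of the 12 calls, 8 held under all alternatives run, and those lost were of Txnrd1, Gpx3, Gpx4 and Cat. The causes were not tested.

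With the replicate number as a block, 13 members were lower and 0 higher, 1 gene of the wider list was higher, and over all genes 937 were lower and 715 higher. Libraries of the same number deviated together at -0.01, -0.09 and 0.18, so the numbers were not read as pairs, and only the libraries numbered 3 correlated best with their own number.

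Among the members and Hmox1, signs that turned all belonged to genes that did not pass with all 6 libraries and TMM. With library totals they were those of Gclm (0.034), Prdx2 (0.024), Gstp1 (0.049) and Sod1 (0.059). With each library left out in turn, log2 fold changes crossed 0 for Nqo1 (-0.056 to 0.19), Gclc (-0.0037 to 0.20, where the highest passed), Gclm (-0.090 to 0.031), Gstp1 (-0.097 to 0.13), Mgst2 (-0.46 to 0.23), Sod1 (-0.042 to 0.0097) and Hmox1 (-0.032 to 0.091), and outside these for Msrb2 (-0.089 to 0.0012). Depth limited Gsta4, Mgst2, Gstp1 and Gpx3, at under 5 CPM.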

Other observations

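Selenoproteins carry selenocysteine, and their transcripts are known to depend in different degrees on selenium supply, with Gpx1 and Selenow among the sensitive ones. The part of selenium supply in the values below was not tested. Because the members Gpx1, Gpx3, Gpx4 and Txnrd1 are selenoprotein genes, all 24 of the mouse were read, a list added after seeing the data. Since those 4 prompted the list, they are left out of its first count. That count still holds values already seen, since Msrb1, Selenow, Txnrd2, Txnrd3, Selenos, Selenot and Sephs2 were on the wider redox list. Of these, Msrb1 and Selenow are described above as lower and are counted again here. Of the other 17 tested, 6 were lower with lipids and 0 higher by edgeR's quasi-likelihood test (median -0.17 log2), where 6.87% of all tested genes were lower. With the 4 members, 10 of 21 were lower. The counts from other fits that follow include those 4 members, and the 17 alone were not recounted. The count of 10 was 7 with library totals, where 4.67% of all genes were lower, and 8 with limma-voom, where 845 genes were. Dropping replicate 1, 2 or 3 of the libraries with lipids left 4, 6 and 5 lower. Over all genes those shares were 3.67%, 3.27% and 3.75%. Dropping replicate 1, 2 or 3 of those lacking lipids left 12, 4 and 8. Over all genes those shares were 15.1%, 3.69% and 6.69%. In the last case 1 was higher, Selenop, where 5.01% of all genes were. Beyond those described in the report, Selenoh was at 3.06 ± 0.42 CPM with lipids, against 5.69 ± 1.52 CPM without (-0.89 log2, edgeR adjusted p = 0.0150), and Selenok, of the endoplasmic reticulum, at 118 ± 3.6 CPM with lipids, against 139 ± 0.9 CPM without (-0.24, edgeR adjusted p = 0.0189). The Selenok call was lost in 4 of 6 fits that left out a library and that of Selenoh in 2.

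Selenom was at 7.21 ± 0.53 CPM with lipids, against 10.9 ± 2.7 CPM without (-0.60 log2, edgeR adjusted p = 0.0428), with overlapping groups, and passed in 1 of 6 such fits. Dio2, a deiodinase and also among the 6 lower genes, changed most of the list. It was at 1.26 ± 0.16 CPM with lipids, against 11.3 ± 2.6 CPM without (SD, n = 3 each). Its difference of -3.15 log2 (edgeR adjusted p = 1.08e-05) was the lowest of all 12767 tested genes. Others did not pass. Txnrd3 was at -0.33, Selenon at -0.21, Selenoo at -0.17 and Sephs2 at -0.15 log2 (edgeR adjusted p-values of 0.0758 to 0.297). Selenoi was at 0.074 and Dio3 at 0.15 log2 (edgeR adjusted p-values of 0.589 and 0.822). Selenof was at -0.0053, Selenos at -0.0091, Selenot at -0.035 and Txnrd2 at 0.038 log2 (edgeR adjusted p-values of 0.790 to 0.968), and each crossed 0 when libraries were left out in turn. Selenop, the abundant secreted selenium carrier, was at 2285 ± 170 CPM with lipids, against 2105 ± 572 CPM without (0.12 log2, edgeR adjusted p = 0.658), and its libraries without lipids were spread. Its log2 fold change ran from -0.015 to 0.37 as libraries were left out, and it passed as higher without replicate 3 lacking lipids (edgeR adjusted p = 0.00757).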
